A study of Homo sapiens with 6 samples.

Results

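The genes described here encode the proteins that build, cut, cap and crosslink actin filaments. A list of 51 gene symbols defined them, and a gene counted as measured when a row of the array table carried its symbol and no other. Of the 51 genes, 42 were measured in this way, of 18418 genes with such a row in all. ARPC4, CORO1B and EZR were read only by rows that name a second gene as well. ACTR2, WASF1, CAP1, FLNA, FLNC and TPM3 were not analysed here. The cells were MDA-MB-231, a cell line from a human breast cancer that lacks hormone receptors and HER2 and has a mesenchymal shape. They carried a control short hairpin RNA (shRNA), TIP-1 shRNA 162 or TIP-1 shRNA 159. TIP-1, encoded by TAX1BP3, is a small PDZ-domain protein. Each group held 2 independent clones, each clone was measured on 1 Affymetrix Human Gene 1.0 ST array, and a clone was the replicate (n = 2 per group). All groups had been trypsinised, seeded again and cultured overnight before total RNA was taken. Each hairpin was present in its own pair of clones, so differences between hairpins and differences between clonal lines cannot be told apart.

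Actin monomers add to filaments mainly at the barbed end. The Arp2/3 complex, switched on by WAVE and WASP proteins, starts branches on the side of existing filaments, while formins start and lengthen unbranched ones and profilin feeds them monomers. Cofilins sever old filaments, capping proteins stop growth, and alpha-actinins, filamins, tropomyosins, calponins and non-muscle myosin II turn filaments into contractile bundles. In migrating breast cancer cells these proteins drive the leading edge and pull the cell body forward.

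Signals are on the log2 scale, so a difference of 1 is a 2-fold difference. A gene passed when its adjusted p, from a limma fit across 21214 rows with Benjamini-Hochberg adjustment, was under 0.05. The members were bright rows. Their median mean signal stood at the 92.05th percentile of the tested rows, and the dimmest, EVL, lay at the 59.7th percentile. Clones of the same group differed by a median of 0.06 and at most by 0.35 for a member. The TAX1BP3 row, which also names a readthrough transcript, fell by 1.67 with shRNA 162 and by 1.2 with shRNA 159. The 7 markers of this line (VIM, CD44, AXL, ZEB1, LGALS1, KRT8 and KRT18) were all above the upper quartile of mean signal. KRT8 fell by 0.44 with shRNA 162. Of 8 luminal and epithelial markers, 3 lay below the lower quartile on every array, among them ESR1 (17.5th percentile of mean signal) and PGR (11.5th). The others stood from the 39.8th (EPCAM) to the 53.2nd percentile (ERBB2). Of 5 leukocyte markers 4 lay below the lower quartile on every array, PTPRC (3.5th) among them, and CD14 stood at the 33.3rd. Of 10 muscle markers 2 were above the upper quartile, SMTN (86.7th) and TNNT1 (75.3rd), and 1 was below the lower quartile on every array. Of 8 luminal and epithelial markers EPCAM alone passed. It rose by 0.94 with shRNA 159 and by 0.55 for TIP-1 shRNA minus control. EPCAM was higher with shRNA 159 than with shRNA 162 by 0.79, and its change of 0.16 with shRNA 162 did not pass. The mean of that list ran from 7.10 to 7.24 in the control clones, from 7.11 to 7.18 with shRNA 162 and from 7.21 to 7.31 with shRNA 159. Among 8 fibroblast and endothelial markers PDGFRB was higher with shRNA 159 than with shRNA 162 by 0.41. None of 10 muscle and 5 leukocyte markers passed. The part of these markers in the results was not tested.

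When both hairpins were weighed equally against control, 3 actin genes passed. PFN2 (profilin 2, which supplies actin monomers to growing ends) and CFL2 (cofilin 2, which severs filaments) fell, and SVIL (supervillin, which ties filaments and myosin II to the membrane) rose. These 3 of 42 members were 1 higher (2.38%) and 2 lower (4.76%), against 3.01% of all tested rows higher and 1.61% lower. The other 39 members did not pass, and 13 of 42 had an unadjusted p under 0.05 (31%, against 19.8% of all tested rows). These 3 calls were all lost when every row of the table was tested, when the 4 shRNA clones were taken as 1 group and when the hairpin was a random block, and SVIL reversed on a row it shares. The median change over the members was -0.053, beside 0.001 over all tested rows and 0.039 over rows at least as bright as the dimmest member. After quantile normalization 6 members passed, 1 higher and 5 lower, and the split over all rows went from 639 higher and 341 lower to 549 and 465. None of the 42 members changed by 2-fold or more in any comparison.

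With shRNA 162 more members passed, and nearly all of them were lower. CFL2, ACTN1, CNN3, MYL12B, MYL6 and PFN2 fell and SVIL rose. That is 6 of 42 lower (14.3%) and 1 higher (2.38%), against 3.64% lower and 5.88% higher among all rows. Among the 8558 rows at least as bright as the dimmest member, 5.94% were lower and 9.34% higher. The median change over the members was -0.091, beside 0.021 over all tested rows and 0.049 over those brighter rows. In 24 members both shRNA 162 clones lay below both control clones (23.3% of all rows did so), and in 7 both lay above (33.3% of all rows). Over all rows 1247 were higher and 772 lower, and 1081 and 1065 after quantile normalization, where 9 members fell and 1 rose. With every row of the table tested, CFL2 and ACTN1 passed and the other 5 calls were lost.

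With shRNA 159 a single member passed, the formin DIAPH2, which fell. That is 2.38% of the members lower and 0 higher, against 0.839% lower and 1.69% higher among all rows. Of the 42 members, 5 had an unadjusted p under 0.05 (11.9%, against 14.1% of all tested rows). The median change was -0.022, beside -0.014 over all tested rows and 0.029 over rows at least as bright as the dimmest member. Both hairpin groups were compared with the same control clones.

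The direct comparison of the hairpins gave 3 members. CFL2 and ACTN1 were higher with shRNA 159 than with shRNA 162 (4.76%, against 4.02% of all rows) and DIAPH2 was lower (2.38%, against 4.64%). No other member passed this test, including PFN2, SVIL, CNN3, MYL12B and MYL6, so for those genes a difference between the hairpins was not shown. The median over the members was 0.057, beside -0.039 over all tested rows and -0.018 over rows at least as bright as the dimmest member. After quantile normalization MYH9 and CAPZA2 also passed as lower with shRNA 159, which made the members 2 higher and 3 lower.

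**Figure D1:**
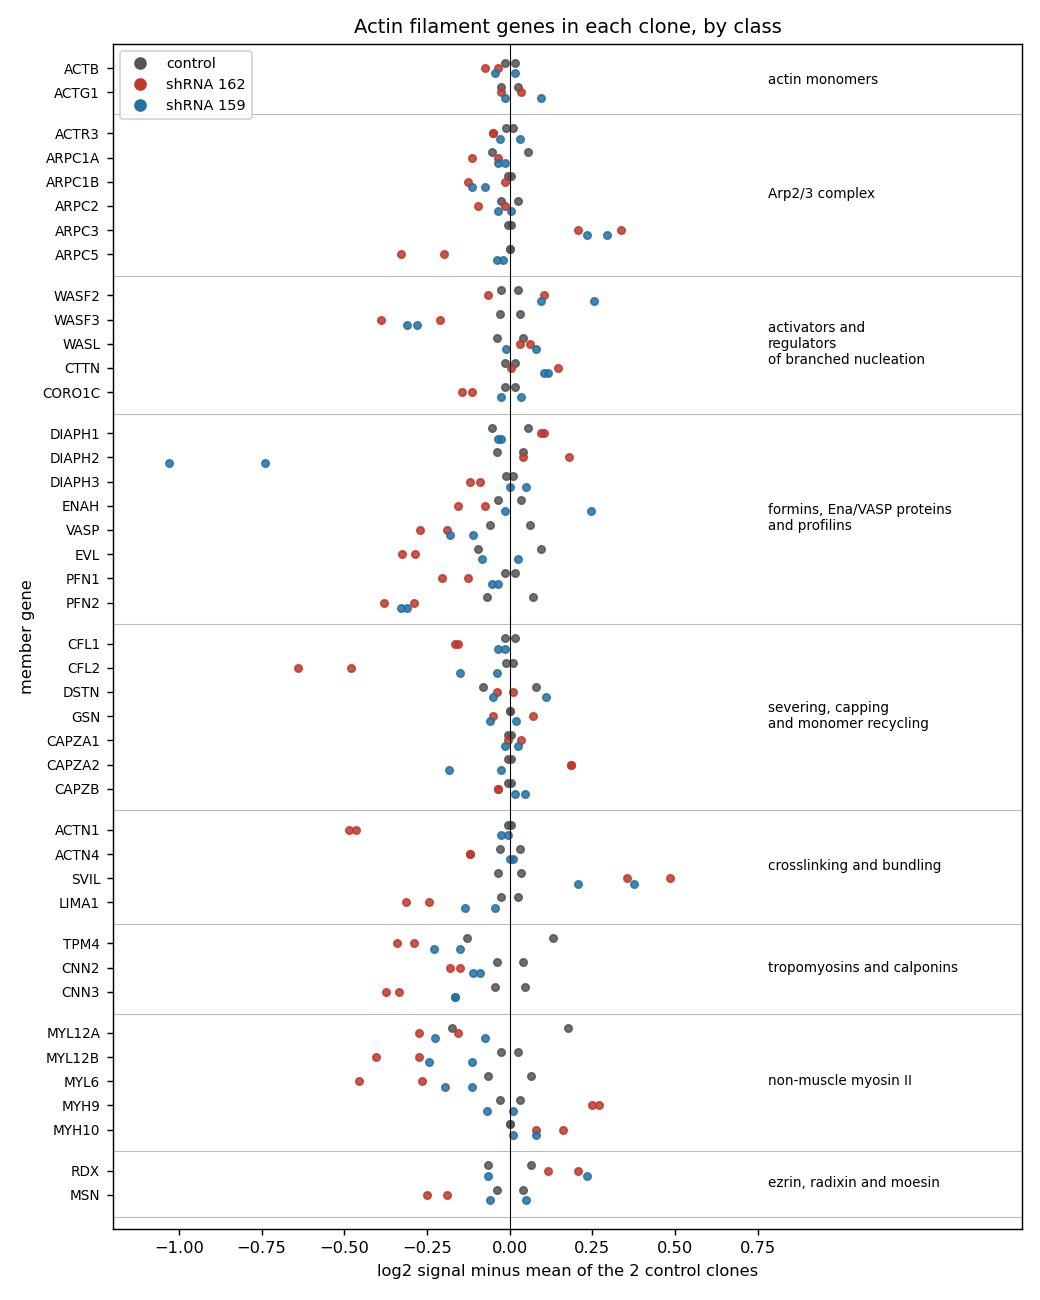
Signal of each of the 42 measured actin genes in each clone (log2, horizontal axis) relative to the mean of the control clones, in 9 classes; grey points are control, red shRNA 162 and blue shRNA 159 clones. DIAPH2 lies far to the left in the shRNA 159 clones alone, CFL2 and ACTN1 in the shRNA 162 clones alone, and the actin monomers near 0 in every clone.

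The actin monomers themselves did not pass in any comparison. ACTB, which encodes beta-actin, read 13.90 and 13.87 in the control clones, 13.85 and 13.81 with shRNA 162, and 13.90 and 13.84 with shRNA 159. Its change for TIP-1 shRNA minus control was -0.03, with a 95% interval from -0.18 to 0.12. ACTG1, which encodes gamma-actin, read 14.00 and 13.95 in the control clones, 13.95 and 14.01 with shRNA 162, and 14.07 and 13.96 with shRNA 159. Its change was 0.02 (95% interval -0.14 to 0.18). These rows were among the brightest of the array, and both genes have near-identical copies whose signal they may share. The intervals leave room for changes of at most 0.22 in either direction with either hairpin. The ACTG1 promoter holds a CArG box, the sequence bound by serum response factor (SRF), and so do those of CNN2 and TPM4 among the measured members. Sequences are from RefSeq, build GRCh38.p14, in the sense of the gene, with the CArG box in capitals. They cover chr17:81512859-81512918 (minus strand, ACTG1), chr19:1026494-1026553 (plus strand, CNN2) and chr19:16067340-16067399 (plus strand, TPM4). They are shown because these 3 genes carry the element and did not pass in any comparison of the reported fit. With a variance trend in the fit, CNN2 and TPM4 passed as lower with shRNA 162.
ACTG1: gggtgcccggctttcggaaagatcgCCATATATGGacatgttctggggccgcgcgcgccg
CNN2: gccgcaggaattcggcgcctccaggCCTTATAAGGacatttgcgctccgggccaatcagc
TPM4: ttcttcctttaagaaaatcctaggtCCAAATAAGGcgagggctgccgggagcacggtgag

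The CArG box stood in 3 of 37 measured members with a promoter entry (8.11%; 250 bases before to 50 after the start) and in 1.29% of 27305 promoters of the same length. None of the 7 members that passed and had an entry held one, and 7 are too few to compare shares. The TEAD-type motif CATTCC, searched on both strands, stood in 10.8% of these members and 14% of all promoters, and the AP-1-type motif TGANTCA in 5.41% and 7.76%. Neither was found in the 7 members that passed. The GC box GGGCGG, on either strand, stood in 94.6% of measured members and 44.6% of all promoters, and in 7 of the 7. Shares were not computed for promoters of genes as bright as the members or of like base content.

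No subunit of the Arp2/3 complex, which nucleates branches, passed. The 6 measured subunits had a median change of -0.042 for TIP-1 shRNA minus control. ARPC3, a structural subunit, had the smallest p of the complex. It read 11.36 and 11.35 in the control clones, 11.56 and 11.69 with shRNA 162, and 11.65 and 11.59 with shRNA 159. All 4 shRNA clones lay above both control clones, but the change of 0.27 (SE 0.07, limma adjusted p = 0.0737) did not pass. ARPC5, another structural subunit, stood at 11.19 in both control clones and at 10.86 and 10.99 with shRNA 162, a change of -0.26 that did not pass (limma adjusted p = 0.0755). The remaining subunits ACTR3, ARPC1A, ARPC1B and ARPC2 had changes from -0.10 to 0.00 with either hairpin. The row shared by ARPC4 and a readthrough transcript changed by 0.02 for TIP-1 shRNA minus control (limma adjusted p = 0.890).

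Of 5 measured activators and regulators of branched nucleation none passed. WASF3, a WAVE protein that passes Rac signals to the Arp2/3 complex, came closest. It read 10.16 and 10.10 in the control clones, 9.74 and 9.92 with shRNA 162, and 9.85 and 9.82 with shRNA 159. Every shRNA clone lay below the control clones. The change was -0.29 (SE 0.07, limma adjusted p = 0.0651), and -0.30 and -0.29 with shRNA 162 and 159. WASF2, WASL (N-WASP), CTTN (cortactin, which stabilises branches) and CORO1C (a coronin) had changes from -0.06 to 0.10 in that comparison. CORO1C, a bright row, read 13.09 and 13.12 in the control clones and 12.99 and 12.96 with shRNA 162, a change of -0.13 that did not pass.

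Among formins, Ena/VASP proteins and profilins, DIAPH2 had the largest change of any member. DIAPH2 is a diaphanous formin, which nucleates and lengthens straight filaments. It read 8.90 and 8.82 in the control clones, 9.04 and 8.90 with shRNA 162, and 8.12 and 7.83 with shRNA 159. The shRNA 159 clones lay well below the other 4, which overlapped. With shRNA 159, DIAPH2 fell by 0.89, or 1.85-fold (SE 0.11, limma adjusted p = 0.0049). In a bulk culture, fewer cells with the transcript and less transcript per cell cannot be told apart. With shRNA 162 the change was 0.11 (limma adjusted p = 0.608). The difference between the hairpins was -0.99 (SE 0.11, limma adjusted p = 0.0017) and passed without each of the 6 arrays in turn. The call with shRNA 159 was lost without control clone 1 (log2 change -0.85, limma adjusted p = 0.0514) and with every row of the table tested (-0.89, limma adjusted p = 0.0661).

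DIAPH2-AS1, an antisense gene inside the DIAPH2 locus on chromosome X, was read by a separate and dim row. It read 6.70 and 6.73 in the control clones, 6.86 and 6.84 with shRNA 162, and 6.39 and 6.28 with shRNA 159. It fell by 0.38 with shRNA 159 (SE 0.08, limma adjusted p = 0.0415), the same direction as DIAPH2. Whether either row reads the transcript of the other was not tested. Within 5 Mb of DIAPH2, a stretch that holds DIAPH2-AS1, 2 of 32 measured genes were lower with shRNA 159 (6.25%, against 0.839% of all rows). The median change of the 32 was -0.06. The related formins DIAPH1 and DIAPH3 had changes of -0.03 and 0.03 with shRNA 159. The last 120 bases before the DIAPH2 start (chrX:96684722-96684841, plus strand, RefSeq GRCh38.p14) are shown because this gene had the largest difference between the hairpins, with its GC boxes in capitals.
DIAPH2: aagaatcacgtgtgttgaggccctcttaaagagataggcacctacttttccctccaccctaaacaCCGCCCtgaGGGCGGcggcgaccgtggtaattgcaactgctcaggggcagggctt

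PFN2 was lower in all 4 shRNA clones. It read 10.54 and 10.68 in the control clones, 10.32 and 10.23 with shRNA 162, and 10.28 and 10.30 with shRNA 159. None of the shRNA clones reached a control clone, and the groups of both hairpins lay close together. For TIP-1 shRNA minus control PFN2 fell by 0.32 (SE 0.07, limma adjusted p = 0.0426), 1.25-fold lower. It fell by 0.33 with shRNA 162 (limma adjusted p = 0.0418), and its change with shRNA 159 was -0.32, which did not pass (limma adjusted p = 0.101). The hairpins differed by 0.01 (95% interval -0.18 to 0.20). The first call was lost without any 1 of the 6 arrays, with changes from -0.40 to -0.25 and limma adjusted p from 0.0538 to 0.322. The second was lost without either control clone or either shRNA 162 clone (-0.40 to -0.26). On chromosome 3, which holds PFN2, 99 of 1010 other measured genes were lower with shRNA 162 (9.8%, against 3.64% of all rows). There 63 were higher (6.24%, against 5.88% of all rows). Within 5 Mb of PFN2, 2 of 44 genes were lower and 4 higher, with a median of 0.09. Their part in the change of PFN2 was not tested.

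PFN1, the broadly expressed profilin, read 13.72 and 13.69 in the control clones, 13.50 and 13.58 with shRNA 162, and 13.67 and 13.65 with shRNA 159. Its change was -0.10 (limma adjusted p = 0.440). Of the Ena/VASP proteins, which protect growing barbed ends, VASP had a change of -0.19, EVL of -0.17 and ENAH of 0.00. EVL read 8.40 and 8.59 in the control clones and 8.17 and 8.21 with shRNA 162, where its change of -0.31 did not pass (limma adjusted p = 0.0688). In all, 1 of 8 members of this class passed for TIP-1 shRNA minus control, with a class median of -0.136.

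Among the severing, capping and recycling proteins CFL2 alone passed, of 7 measured. CFL2 read 9.95 and 9.93 in the control clones, 9.46 and 9.30 with shRNA 162, and 9.90 and 9.79 with shRNA 159. The shRNA 162 clones stood apart from the other 4, and the shRNA 159 clones lay just below the control clones. CFL2 fell by 0.56 with shRNA 162 (SE 0.09, limma adjusted p = 0.0067), 1.47-fold lower, and by 0.33 for TIP-1 shRNA minus control (SE 0.07, limma adjusted p = 0.0473). With shRNA 159 the change was -0.10 (limma adjusted p = 0.671). CFL2 was higher with shRNA 159 than with shRNA 162 by 0.46 (SE 0.09, limma adjusted p = 0.0152). Without any 1 array the call for TIP-1 shRNA minus control was lost (-0.37 to -0.29). The call with shRNA 162 was lost without control clone 1 (-0.55) or shRNA 162 clone 2 (-0.48), and that between hairpins without shRNA 162 clone 2 (0.38) or shRNA 159 clone 1 (0.41), or with every row of the table tested (0.46).

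The other members of this class had small differences. CFL1, the cofilin of most non-muscle cells, read 13.34 and 13.37 in the control clones, 13.19 and 13.20 with shRNA 162, and 13.32 and 13.34 with shRNA 159. Both shRNA 162 clones lay below the rest, but the change of -0.16 did not pass (limma adjusted p = 0.218). DSTN (destrin), GSN (gelsolin, which severs and caps) and the capping protein subunits CAPZA1 and CAPZB had changes between -0.03 and 0.03 with either hairpin. CAPZA2 read 10.09 in both shRNA 162 clones and 9.88 and 9.72 with shRNA 159, a difference of -0.29 that did not pass (limma adjusted p = 0.0657).

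ACTN1 fell with shRNA 162, alone among the 4 measured members of the crosslinker class. ACTN1 encodes alpha-actinin 1, which bundles filaments in stress fibres and at adhesions. It read 13.21 and 13.20 in the control clones, 12.72 and 12.74 with shRNA 162, and 13.18 and 13.20 with shRNA 159. The clones of each group lay close together, and the shRNA 162 clones apart from the rest. ACTN1 fell by 0.48 with shRNA 162 (SE 0.07, limma adjusted p = 0.0061), 1.40-fold lower, and its change with shRNA 159 was -0.02 (95% interval -0.18 to 0.15). ACTN1 was higher with shRNA 159 than with shRNA 162 by 0.46 (SE 0.07, limma adjusted p = 0.0073). The call with shRNA 162 was lost without control clone 1 (-0.48, limma adjusted p = 0.0534) or shRNA 162 clone 1 (-0.47). That between the hairpins was lost without either shRNA 162 clone (0.45 and 0.47).

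CFL2 and ACTN1 both lie on chromosome 14, where many other genes were lower in the shRNA 162 clones. Of 587 other measured genes on that chromosome, 109 were lower with shRNA 162 (18.6%, against 3.64% of all rows) and 4 higher. Their median change was -0.15. With shRNA 159, 6 were lower (1.02%) and 4 higher, with a median of -0.01. Between the hairpins 127 were higher with shRNA 159 (21.6%). Within 5 Mb of CFL2, 13 of 45 genes were lower with shRNA 162 (median -0.18), SNX6 (-0.41) and FAM177A1 (-0.72) among its near neighbours. Within 5 Mb of ACTN1, 19 of 72 were lower (median -0.21), RDH11 (-0.37), RAD51B (-0.41), ZFP36L1 (-0.33) and DCAF5 (-0.44) among its near neighbours. EVL, which did not pass, lies on chromosome 14 too, and its 10 neighbouring genes had a median of -0.18 with shRNA 162. The part of this chromosome-wide shift in the changes of CFL2, ACTN1 and EVL was not tested. The last 120 bases before the starts of CFL2 and ACTN1 are shown because both genes fell in the same clones. They cover chr14:34714594-34714713 for CFL2 and chr14:68979303-68979422 for ACTN1 (both minus strand, RefSeq GRCh38.p14). GC boxes are in capitals. A pair overlaps in CFL2 and a pair adjoins in ACTN1, so that each pair forms a longer run.
CFL2: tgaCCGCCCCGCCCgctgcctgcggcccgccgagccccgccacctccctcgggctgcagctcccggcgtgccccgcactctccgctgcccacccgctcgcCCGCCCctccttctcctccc
ACTN1: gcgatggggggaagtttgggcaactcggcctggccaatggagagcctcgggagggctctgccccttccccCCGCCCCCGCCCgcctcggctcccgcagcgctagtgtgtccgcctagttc

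**Figure D2:**
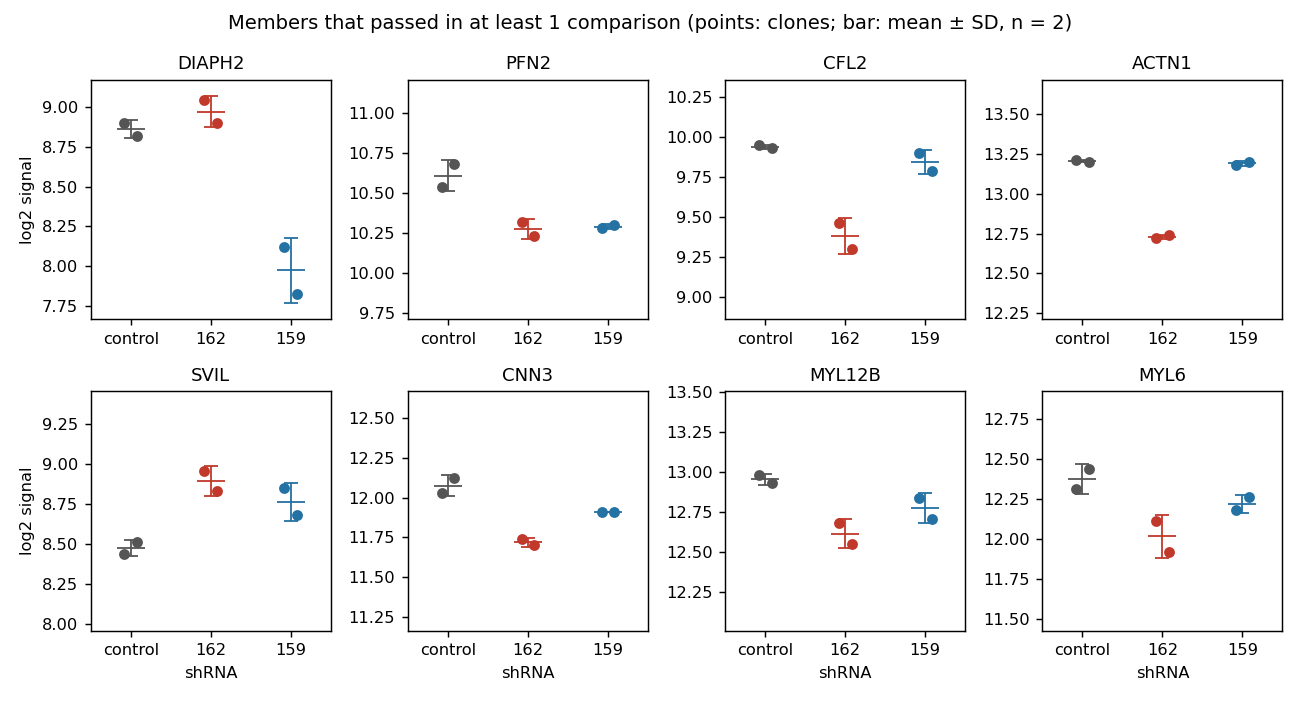
Signal (log2, vertical axis, each panel spanning the same range) of the 8 members that passed in at least 1 comparison, by shRNA group; points are clones and bars the mean ± SD (n = 2). PFN2 and SVIL sat on 1 side of the control clones with both hairpins, CFL2 and ACTN1 lay lowest in the shRNA 162 clones, and DIAPH2 in the shRNA 159 clones.

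SVIL was the 1 member that rose. SVIL read 8.44 and 8.51 in the control clones, 8.96 and 8.83 with shRNA 162, and 8.85 and 8.68 with shRNA 159. Each shRNA clone lay above both control clones. SVIL rose by 0.35 for TIP-1 shRNA minus control (SE 0.08, limma adjusted p = 0.0442) and by 0.42 with shRNA 162 (SE 0.09, limma adjusted p = 0.0255), 1.34-fold. The change of 0.29 with shRNA 159 did not pass (limma adjusted p = 0.183). A pair of identical rows named for SVIL and SNHG32 together went the other way, with a change of -0.48 for shRNA 162 (limma adjusted p = 0.0091), so which transcript they read cannot be told from the names, and with those brighter rows in its place SVIL would count as lower. The call for TIP-1 shRNA minus control was lost without any array but shRNA 159 clone 2 (0.31 to 0.39 over the 6 arrays). That with shRNA 162 was lost without either control clone or either shRNA 162 clone (0.35 to 0.48).

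ACTN4 and LIMA1, the other measured members of this class, did not pass. ACTN4, the second non-muscle alpha-actinin, read 13.52 and 13.46 in the control clones, 13.37 in both shRNA 162 clones, and 13.49 and 13.50 with shRNA 159. Its change with shRNA 162 was -0.12 (95% interval -0.29 to 0.05), against -0.48 for ACTN1. LIMA1 (eplin, which bundles filaments and slows their turnover) read 10.57 and 10.52 in the control clones and 10.23 and 10.30 with shRNA 162, a change of -0.28 (limma adjusted p = 0.0624). Of 4 measured crosslinkers 1 rose and 1 fell with shRNA 162.

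The rows of TPM4, CNN2 and CNN3 were below control with both hairpins, and CNN3 alone of the 3 passed. For TIP-1 shRNA minus control all shRNA clones lay below the control clones in these 3 genes, as in 8.9% of all rows. TPM1, a tropomyosin of the further lists, lay above control in the 4 shRNA clones (0.31 and 0.28 with shRNA 162 and 159) and did not pass. CNN3, an acidic calponin that binds along filaments and restrains myosin, read 12.03 and 12.12 in the control clones, 11.74 and 11.70 with shRNA 162, and 11.91 in both shRNA 159 clones. No shRNA clone reached a control clone. CNN3 fell by 0.35 with shRNA 162 (SE 0.07, limma adjusted p = 0.0238), 1.28-fold lower, and its change with shRNA 159 was -0.17 (limma adjusted p = 0.369). The call was lost without either control clone or either shRNA 162 clone (-0.40 to -0.31). CNN2 had changes of -0.16 and -0.10 with shRNA 162 and 159. TPM4, a tropomyosin of stress fibres, read 12.47 and 12.21 in the control clones, 12.00 and 12.05 with shRNA 162, and 12.19 and 12.11 with shRNA 159. Its change of -0.25 did not pass (limma adjusted p = 0.150), and a second, dimmer TPM4 row changed by -0.21 (limma adjusted p = 0.135). The 3 measured genes had a class median of -0.317 with shRNA 162 and -0.167 with shRNA 159, and were below 0 after quantile normalization too (-0.331 and -0.184).

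In non-muscle myosin II 2 of 3 light chains fell with shRNA 162, and neither heavy chain passed. MYL12B, a regulatory light chain whose phosphorylation switches the motor on, read 12.98 and 12.93 in the control clones, 12.68 and 12.55 with shRNA 162, and 12.84 and 12.71 with shRNA 159. MYL6, the essential light chain, read 12.31 and 12.44 in the control clones, 12.11 and 11.92 with shRNA 162, and 12.18 and 12.26 with shRNA 159. For both genes all shRNA clones lay below the control clones and the shRNA 162 clones were the lowest. MYL12B fell by 0.34 with shRNA 162 (SE 0.08, limma adjusted p = 0.0415), 1.27-fold lower, and MYL6 fell by 0.36 (SE 0.09, limma adjusted p = 0.047), 1.28-fold lower. With shRNA 159 their changes were -0.19 and -0.15 and did not pass. Both calls were lost without either control clone or either shRNA 162 clone (-0.41 to -0.28 for MYL12B, -0.46 to -0.27 for MYL6), and that of MYL6 also with the clone number in the model (-0.36). Near MYL12B on chromosome 18, 3 of 27 genes within 5 Mb were lower with shRNA 162 (11.1%, median -0.06), against 3.64% of all rows. For TIP-1 shRNA minus control 5 of the 27 were lower (18.5%, median -0.13), and with shRNA 159 the median was -0.15. Their part in the change of MYL12B was not tested.

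MYL12A, the near-identical neighbour of MYL12B, had a row at the 60.4th percentile of mean signal with widely spread control clones (8.72 and 8.37). Its change of -0.21 with shRNA 162 did not pass. The row shared by MYL12A and MYL12B changed by -0.32 (limma adjusted p = 0.301), and its clones overlapped. MYH9, the heavy chain of myosin IIA, read 12.20 and 12.26 in the control clones, 12.48 and 12.50 with shRNA 162, and 12.24 and 12.16 with shRNA 159. Its change with shRNA 162 was 0.26 (limma adjusted p = 0.0672) and its difference between the hairpins -0.29 (limma adjusted p = 0.0515), neither of which passed. MYH10, the heavy chain of myosin IIB, read 10.07 in both control clones and 10.15 and 10.23 with shRNA 162 (change 0.12, limma adjusted p = 0.364).

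The membrane linkers moesin and radixin did not pass. MSN (moesin) read 12.83 and 12.91 in the control clones, 12.62 and 12.68 with shRNA 162, and 12.92 and 12.81 with shRNA 159. Only the shRNA 162 clones lay outside the range of the rest, with a change of -0.22 (limma adjusted p = 0.135). RDX (radixin) had changes of 0.16 with shRNA 162 and 0.08 with shRNA 159. The row shared by EZR and ROS1 changed by 0.03 for TIP-1 shRNA minus control (limma adjusted p = 0.871).

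**Figure D3:**
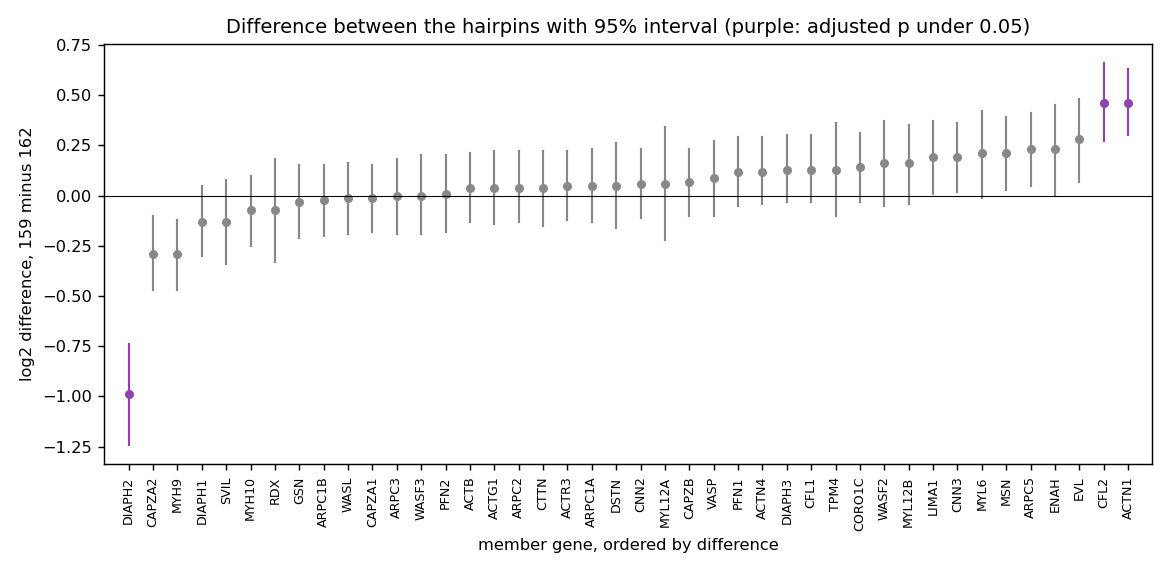
Difference between the hairpins (shRNA 159 minus shRNA 162, log2, vertical axis) for each of the 42 measured members, with its 95% interval from the limma fit. DIAPH2 at -0.99 and CFL2 and ACTN1 at 0.46, in purple, passed the threshold; 11 members in all had an unadjusted p under 0.05 (26.2%, against 24.2% of all tested rows), among them MYH9 and CAPZA2 at -0.29 and EVL at 0.28, which did not pass after adjustment.

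Other genes of the pathway were taken from 8 further lists of 109 genes, 101 of them measured. Of all 101 genes, 3 rose and 5 fell for TIP-1 shRNA minus control (2.97% and 4.95%), 5 rose and 11 fell with shRNA 162 (4.95% and 10.9%), and 4 rose and 3 fell with shRNA 159 (3.96% and 2.97%). Between the hairpins 15 were higher with shRNA 159 (14.9%) and 4 lower (3.96%). Over all rows the shares higher and lower were 3.01% and 1.61% for TIP-1 shRNA minus control, 5.88% and 3.64% with shRNA 162, 1.69% and 0.839% with shRNA 159, and 4.02% and 4.64% between the hairpins. At most 4 genes of a list that passed are named. The chromosomal positions and neighbours of the genes in these lists were not examined. Some may lie on chromosome 14, where many genes were lower in the shRNA 162 clones. The part of that shift in these counts was not tested.

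LIMK1, the kinase that inactivates cofilin, rose with both hairpins, from 9.90 in the control clones to 10.23 with shRNA 162 (change 0.32, limma adjusted p = 0.0400) and 10.47 with shRNA 159 (0.57, limma adjusted p = 0.0082). The myosin-activating kinase ROCK2 rose by 0.45 with shRNA 159 (limma adjusted p = 0.0205) and was higher there than with shRNA 162 by 0.67. PAK2 fell by 0.61 and CDC42BPB (MRCK beta) fell by 0.57 with shRNA 162, and each differed between the hairpins. Of 6 phosphatase genes, PPP1CB, a catalytic subunit of myosin phosphatase, rose by 0.44 with shRNA 159, and SSH2 (slingshot 2, which reactivates cofilin) fell by 0.45.

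Of 14 WAVE and WASP partners, JMY, which nucleates filaments, rose with both hairpins (0.47 with shRNA 162 and 0.71 with shRNA 159). CYFIP2, a WAVE complex subunit, rose by 0.76 with shRNA 162 and differed between the hairpins by -0.98. Of 13 other formins and nucleators, INF2 fell by 0.38 with shRNA 162. Of 24 monomer-binding and turnover genes, GMFB, which prunes Arp2/3 branches, fell by 0.51 with shRNA 162 and by 0.41 with shRNA 159. TMOD1, a pointed-end cap, fell by 0.62 with shRNA 159, ADD3 (adducin 3) fell by 0.37 with shRNA 162, and ADD1 (adducin 1) rose by 0.39 there. Of 17 other crosslinkers, TAGLN fell by 0.67 and ABLIM3 fell by 0.57 with shRNA 162, CALD1 (caldesmon) fell by 0.73, and ABLIM1 rose by 0.61. MYL9, the smooth-muscle-type relative of MYL12B, fell by 0.52 with shRNA 162, had a change of 0.05 with shRNA 159 and was higher with shRNA 159 than with shRNA 162 by 0.57. None of 6 genes for SRF and its co-activators passed in any of the 4 comparisons.

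**Figure D4:**
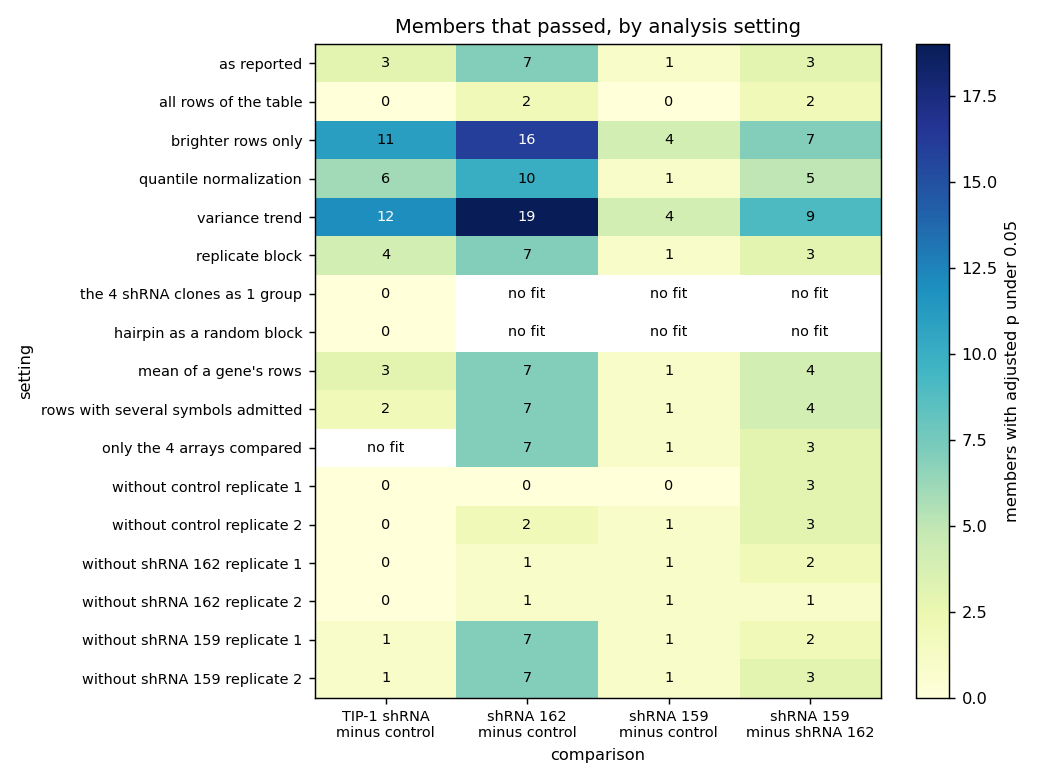
Number of members that passed (adjusted p under 0.05; cell value and colour) in each comparison (columns) under each analysis setting (rows), with the reported fit on top; "no fit" marks comparisons without a fit of that kind. Counts run from 0 to 12 for TIP-1 shRNA minus control and from 0 to 19 for shRNA 162 minus control, and the lowest follow the removal of single arrays, the use of all rows and the fits that treat the hairpin clones as 1 group or the hairpin as a random block.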

How the data were processed

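Arrays were made from 6 clones in 3 groups of 2, and groups were taken from the sample titles. Per the labels, no technical replicates were made and the authors processed the arrays with the Affymetrix Exon Array Computational Tool. The deposited values are log2 signals per row (2.29 to 14.65, array medians 7.37 to 7.44). The base was inferred from that range, and how background correction and normalization were set is not given in the sources used here. Arrays give no count depth, so the number of arrays limits the precision.

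The members, their classes, the further gene lists and the tests were chosen with earlier results of these data known. Of 33297 rows, 19461 carry 1 gene symbol in the platform's probe table, 1753 several and 12083 none. The 21214 rows with a symbol were fitted without further scaling, using R 4.3.3 and its package limma 3.58.1 (functions lmFit and eBayes, 3 groups, 3 residual and 5.31 prior degrees of freedom). Tests were two-sided and Benjamini-Hochberg adjusted over all tested rows. Intervals cover 95%. Of several rows of a gene the brightest counted. The error comes from clones of the same hairpin, which may be technical in part. Clone values were printed for each member that passed, for the member with the smallest p of each class without one, and for ACTB and ACTG1; further members near the threshold and the neighbours of DIAPH2, CFL2 and ACTN1 were named after their values were seen. Chromosome positions and promoters are those of RefSeq for GRCh38.p14, and 46 of 51 genes had a promoter entry. The brighter rows as a second background were added after seeing the data. The fit was run on simulated data with a planted 2-fold difference, a size that no member reached. It was not run at the smaller sizes reported here. Python 3.11.15 and matplotlib 3.10.9 were used for the figures.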

Additional observations from a re-analysis of the deposited data

Results flagged for a closer look

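In 3 actin genes the clones of the hairpins differed in the test of shRNA 159 minus shRNA 162. DIAPH2 was lower with shRNA 159 by a log2 difference of -0.99, and CFL2 and ACTN1 were higher by 0.46 each. Groups of 2 clones are too small for a test of single outlying samples.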

How the results depend on the processing

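Each of the 14 calls described for members kept its direction in the alternatives that were run, except those of SVIL where rows with several symbols were admitted. CFL2 and ACTN1 with shRNA 162 and DIAPH2 and ACTN1 between the hairpins passed in each alternative that left out no array. Counts of members that passed are given in the order TIP-1 shRNA minus control, each hairpin 162 and 159 minus control, and 159 minus 162; the reported counts are 3, 7, 1 and 3. All rows of the table gave 0, 2, 0 and 2 (226, 691, 111 and 593 rows in all, against 980, 2019, 537 and 1836). Brighter rows alone gave 11, 16, 4 and 7 (1992, 3090, 946 and 2468 rows), and a variance trend 12, 19, 4 and 9 (2265, 3482, 1137 and 3022). Quantile normalization gave 6, 10, 1 and 5. Without 1 array the counts ran from 0 to 1, 0 to 7, 0 to 1 and 1 to 3 (187 to 1138, 526 to 2416, 142 to 512 and 597 to 1352 rows). A lone clone is then assumed to vary like the other groups. With the 4 shRNA clones as 1 group, 0 members passed (71 rows), and with the hairpin as a random block 0 (27 rows), where TIP-1 shRNA minus control is concerned. Only the 4 arrays compared gave 7, 1 and 3. Rows with several symbols gave 2, 7, 1 and 4. SVIL was then read by the brighter row it shares with SNHG32 and reversed, with -0.13 for TIP-1 shRNA minus control (limma adjusted p = 0.354), -0.48 for shRNA 162 (limma adjusted p = 0.0091) and a further call of 0.71 between the hairpins. The mean of a gene's rows gave 3, 7, 1 and 4. The clone number as a replicate block gave 4, 7, 1 and 3. It added DIAPH2 in the first comparison and exchanged MYL6 for EVL with shRNA 162. The deviations of clones of the same number correlated at -0.052 between control and shRNA 162 and at 0.263 between control and shRNA 159. Between shRNA 162 and shRNA 159 they correlated at -0.028. Whether clones of the same number share more than the number was not tested. The exact permutation test of 4 against 2 clones cannot go below p = 0.0667. The causes of these shifts were not tested.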

Other observations

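Besides the rows of 1 gene, CORO1B with PTPRCAP was read by a shared row at 9.23 and 9.27 in the control clones, 9.27 and 9.16 with shRNA 162, and 9.11 and 9.33 with shRNA 159. The groups overlapped, and the row changed by -0.03 for TIP-1 shRNA minus control (limma adjusted p = 0.862). CORO1B encodes a coronin that dismantles branches, and its own signal cannot be told apart from that of PTPRCAP.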
